A study of Penaeus monodon with 38 samples.

Results

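The transcripts described here came from an ovarian expressed sequence tag (EST) library of the black tiger shrimp Penaeus monodon. Probes were taken whose description on the array names that library, and they were grouped to targets, an EST or a set of ESTs, by removing the probe's position from its name. This gave 345 probes for 146 targets, of 2240 probes and 921 targets on the array. Of the 146 targets, 3 had 1 probe, 87 had 2 probes and 56 had 3 probes, and 3 targets named several ESTs. The rule used no measured value. No member carried a gene name in the files, so members are called by clone, with the shared start OV-N-S01 left off after first use, and by the first and last base of the probe in its EST. Location in the genome was not analysed here.

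The arrays carried RNA of adult females, hybridised in a single Cy5 channel. Wild-caught females came from hatchery suppliers in Queensland, and both wild and captive-reared females underwent unilateral eyestalk ablation, the removal of 1 eyestalk. Wild ovary and wild eyestalk each had 12 arrays, 2 at each of 6 stages (before ablation, 2 h and 24 h after it, vitellogenic, round cortical rods, elongated cortical rods), and wild cephalothorax had 6 arrays, 1 per stage. Captive ovary and captive eyestalk each had 4 arrays, 1 each before ablation, after ablation while still previtellogenic, vitellogenic, and with elongated cortical rods. The first 3 wild stages and the first pair of captive stages are called previtellogenic here, the later ones vitellogenic. Per the series' design text, wild ovary arrays carried pools of 4 or 5 animals and captive ovary arrays pools of 3, and single animals were not measured. Pool sizes of the eyestalk and cephalothorax arrays are not given here. The error behind most p-values is that among arrays of the stages joined in a group. In the 2 h, 24 h and cortical rod contrasts it is that between the 2 arrays of a stage. RNA came from small pieces of ovarian lobes, cephalothorax or eyestalk.

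The penaeid ovary grows oocytes through a previtellogenic phase into a vitellogenic phase, when yolk is taken up. Ripening oocytes then move extracellular proteins into cortical rods at their edge, and these are released around the egg at spawning to form its jelly layer. Thrombospondin and ovarian peritrophin are main proteins of the rods, and their messengers are known to be made early, in previtellogenic oocytes. Peptide hormones released from the eyestalk restrain ovarian growth, which is why hatcheries ablate it. The cephalothorax is the front body region, with digestive gland, muscle and gills, and the penaeid ovary reaches into it.

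Sequence shared between probes was the only route from a clone to a gene. A run of at least 18 identical bases on either strand joined targets into families, a minimum chosen after seeing the data. Links were chained, so the targets of a family need not all share a run with each other. By this rule 68 of the 146 targets fell into 29 families, 18 of which held more than 1 member, and 78 targets stood alone. The largest family joined 13 ESTs and 30 probes to the array's thrombospondin target. Some of these ESTs, among them 0299-W and 0347-W, were linked to that target only through other targets. Another family joined 4 ESTs and 8 probes to the array's ovarian peritrophin targets, 0867-W only by runs on the opposite strand. Other families are called by their first clone.

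The first set of probe sequences shows these 2 named families, with the run shared with the named target in capitals (for the named target, the run it shares with the first EST below it). The 0715-W probe with no capitals had the larger ovary difference from eyestalk of its EST's probes. All sequences are those of the deposited array files, 5′ to 3′.
thrombospondin 1178-1211: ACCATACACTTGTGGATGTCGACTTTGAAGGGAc
OV-N-S01-0158-W 168-202: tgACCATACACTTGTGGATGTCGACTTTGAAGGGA
OV-N-S01-0913-W 600-634: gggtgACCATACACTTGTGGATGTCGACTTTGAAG
ovarian peritrophin 2 484-518: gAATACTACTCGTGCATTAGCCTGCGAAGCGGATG
OV-N-S01-0715-W 480-514: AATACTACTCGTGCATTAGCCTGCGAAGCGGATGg
OV-N-S01-0715-W 138-172: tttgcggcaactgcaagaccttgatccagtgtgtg

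The second set shows members with no gene name that lead a comparison described later, with the run shared by a pair in capitals. The 0808-W and 0819-W probes belong to the 0054-W family, and 0369-W, paired with 0810-W, had one of the largest ovary differences. The 1125-W, 1130-W and 0213-W probes were brighter in eyestalk than in ovary, and HPA-N-S01-0546-LF is a hepatopancreas clone that shares a run with 1125-W. The 0204-W, 0775-W and 0732-W groups were low on the captive ovary array from before ablation.
OV-N-S01-0808-W 88-121: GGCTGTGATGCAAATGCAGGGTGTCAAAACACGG
OV-N-S01-0819-W 200-235: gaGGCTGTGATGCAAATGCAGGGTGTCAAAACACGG
OV-N-S01-0369-W 43-77: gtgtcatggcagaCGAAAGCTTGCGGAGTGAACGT
OV-N-S01-0810-W 64-98: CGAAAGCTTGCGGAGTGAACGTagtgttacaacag
OV-N-S01-1125-W 62-96: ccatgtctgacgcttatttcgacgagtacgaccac
HPA-N-S01-0546-LF 272-306: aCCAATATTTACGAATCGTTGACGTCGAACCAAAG
OV-N-S01-1125-W 284-318: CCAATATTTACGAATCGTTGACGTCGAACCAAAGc
OV-N-S01-1130-W 294-328: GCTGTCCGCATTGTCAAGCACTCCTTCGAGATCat
OV-N-S01-0213-W 331-365: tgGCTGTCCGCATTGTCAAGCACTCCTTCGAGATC
OV-N-S01-0986-W 171-205: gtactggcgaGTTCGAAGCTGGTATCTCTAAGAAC
OV-N-S01-0204-W 178-212: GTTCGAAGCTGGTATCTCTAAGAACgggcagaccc
OV-N-S01-0775-W 244-278: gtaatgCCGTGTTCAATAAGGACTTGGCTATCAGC
OV-N-S01-0790-W 84-118: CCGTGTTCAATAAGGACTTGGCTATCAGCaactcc
OV-N-S01-0732-W 609-643: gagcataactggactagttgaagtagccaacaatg

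The third set shows pairs of probes that carry opposite strands of one sequence, with the shared stretch in capitals on each, so that each run in capitals is the reverse complement of its partner's.
OV-N-S01-0387-W 468-502: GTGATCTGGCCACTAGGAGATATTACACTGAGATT
OV-N-S01-1097-W 436-470: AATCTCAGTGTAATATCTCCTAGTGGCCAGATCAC
OV-N-S01-0389-W 766-800: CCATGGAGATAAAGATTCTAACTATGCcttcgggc
OV-N-S01-0867-W 150-184: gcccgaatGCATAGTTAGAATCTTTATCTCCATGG
Contig[0238] 1241-1276: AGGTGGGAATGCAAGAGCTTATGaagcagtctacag
OV-N-S01-1095-W 54-88: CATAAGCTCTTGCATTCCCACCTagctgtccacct

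Levels are log2 normalised intensities of 1 probe, from 1 normalisation over all 38 arrays. Each difference and its standard error (SE) come from a fit whose arrays were normalised among themselves, so it can depart slightly from the difference of the printed levels. A probe was called at an adjusted p under 0.05 over all 2240 probes. Since brightness depends on the probe, levels of different probes are not set against each other. The median intensity of an array lay between 72.3 and 384, and the number of arrays limits the precision. A probe was taken as above the non-specific level of an array when it exceeded the 90th percentile of the array's 24 vertebrate-derived probes. Most tissue markers followed the labels: the median of the 5 thrombospondin probes was 12.16 to 13.14 over the 16 ovary arrays and 6.68 to 7.75 over the 16 eyestalk arrays, and that of the 9 probes of arrestin, a photoreceptor protein, 6.39 to 6.75 and 7.07 to 11.16. The 15 probes of pigment dispersing hormone, an eyestalk peptide, did not separate the tissues, with medians of 6.72 to 7.41 and 6.84 to 7.11. Each slide held 1 tissue, so tissue and slide cannot be told apart in the tissue comparisons.

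Most of the ovarian ESTs gave signal in every ovary. Of the 345 members, 191 were above the non-specific level on all 16 ovary arrays, wild and captive, against 519 of all 2240 probes. Of these 191, 103 were above it on no eyestalk array (156 of the 519) and 45 on all 16 eyestalk arrays (185 of the 519). A further 33 members were above the level on no ovary array, against 769 of all probes, and 29 on no array at all, against 473. The share of members above the level was 70.1% to 87.0% on single wild ovary arrays, 23.2% to 34.8% in wild eyestalk and 46.1% to 67.2% in cephalothorax. The share of all probes was 34.2% to 48.8%, 24.3% to 39.0% and 43.3% to 50.4%, and the level itself was higher in wild eyestalk, at 7.68 to 8.72, than in wild ovary, at 7.33 to 7.93. On all ovary arrays and on no eyestalk or cephalothorax array 2 members were above the level, against 6 of all probes.

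**Figure D1:**
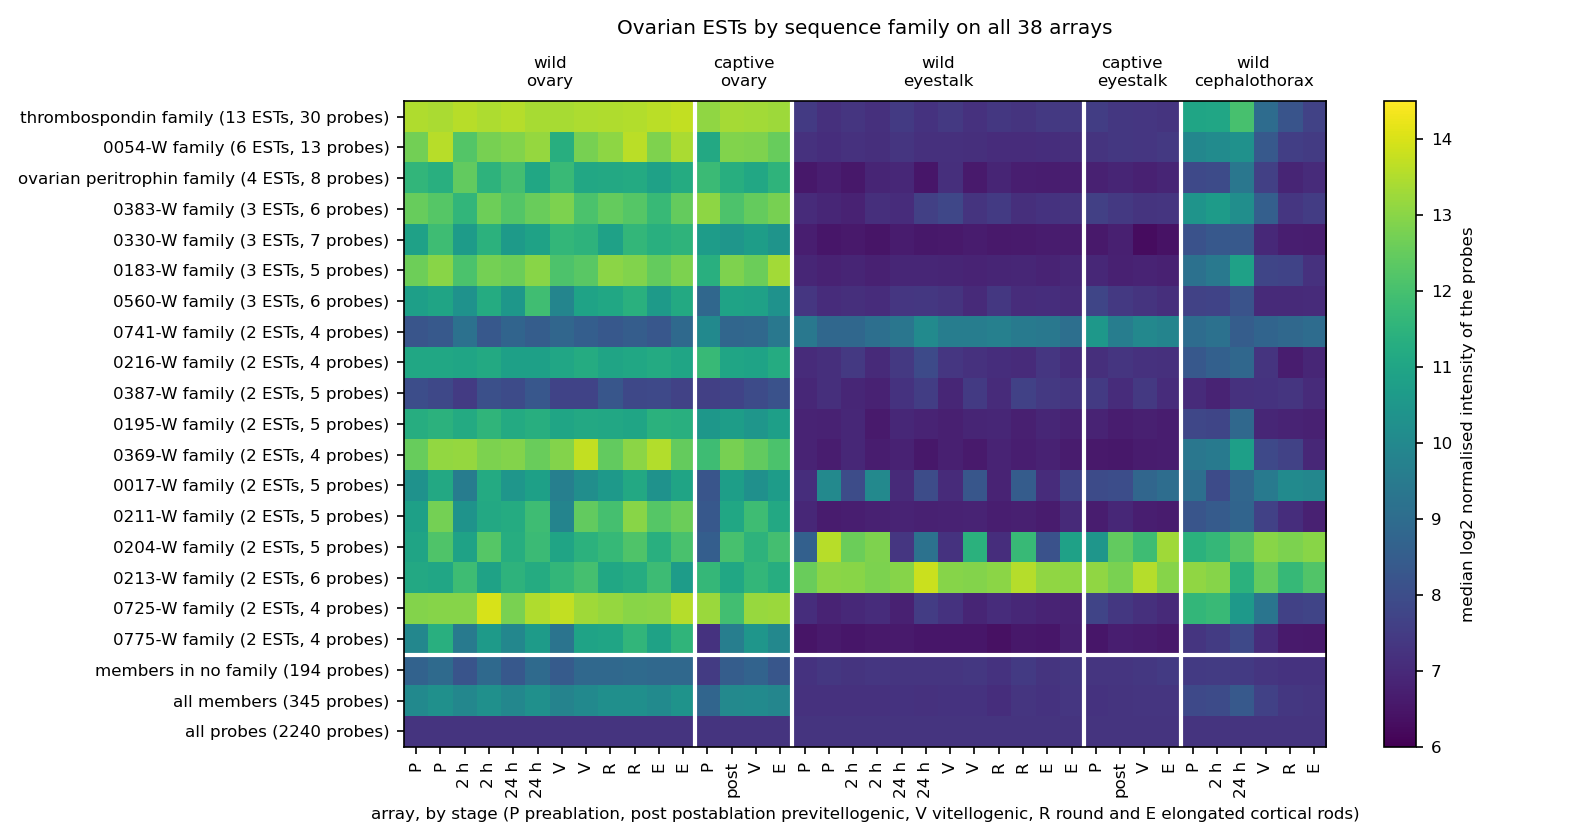
Median log2 normalised intensity of each sequence family with 2 or more member ESTs (rows) on the 38 arrays (columns, ordered by tissue, origin and stage). Rows are to be read along the arrays and not against each other; most families are bright in ovary and dark in eyestalk, and the cephalothorax columns fade after the 24 h array for the thrombospondin family, from 12.04 at 24 h to 7.69 with elongated cortical rods.

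Wild ovary was compared with wild eyestalk to ask how far ESTs cloned from ovary are restricted to it. Of the 345 member probes, 232 were higher in ovary and 54 lower (limma, adjusted p under 0.05), and the median fitted difference was 1.68 on the log2 scale, or 1.16 with the 134 probes above the non-specific level on no array of the dimmer tissue set at their bound. Of all 2240 probes, 65.6% were called, 28.6% higher and 37% lower, and their median difference was -0.06. Probes from the hepatopancreas EST library of the same array were called higher in 53 and lower in 134 of 351, a contrast that was not tested. By target, 103 of the 146 had calls only in the higher direction, 26 only in the lower, 8 in both directions and 9 none. In whole tissue RNA, fewer cells of a type and less RNA per cell cannot be told apart.

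The cortical rod families were among the leading members. All 30 probes of the thrombospondin family were higher in ovary, by a fitted median of 5.57 on the log2 scale, or 4.87 with 19 probes at their bound. The 0913-W probe 600-634 lay at 14.00, 14.91 and 15.54 (lowest, median, highest) over 12 wild ovary arrays and at 6.84, 7.25 and 7.43 over 12 eyestalk arrays. The groups did not overlap, and no eyestalk array exceeded the non-specific level. The log2 difference was 7.59 (SE 0.42, limma adjusted p = 3.37e-16), or at least 98.1-fold. Its relative 0158-W, at probe 168-202, lay at 11.94, 12.77 and 13.39 in ovary and at 6.27, 6.38 and 6.95 in eyestalk, again without overlap, a fitted log2 difference of 6.50 (SE 0.32, limma adjusted p = 1.56e-17), at least 25.3-fold.

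In the ovarian peritrophin family 6 probes were higher in ovary and 2 lower. The 0715-W probe 138-172 lay at 13.14, 14.45 and 15.46 in wild ovary and at 6.61, 6.84 and 7.36 in eyestalk, with no eyestalk array above the non-specific level. Its log2 difference was 7.56 (SE 0.42, limma adjusted p = 3.5e-16), at least 74.3-fold. Both lower probes belonged to 0867-W, whose probe 150-184 carries the opposite strand of the peritrophin-family EST 0389-W and is described with the other opposite pairs.

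Families without a gene name reached the same order of difference. All 13 probes of the 0054-W family were higher in ovary, by a fitted median of 5.57 on the log2 scale, or 4.82 with 10 probes at their bound. The 0369-W probe 43-77 lay at 13.56, 14.33 and 14.88 in wild ovary and at 6.60, 7.00 and 7.26 in eyestalk, a log2 difference of 7.39 (SE 0.31, limma adjusted p = 5.76e-19) or at least 70.2-fold. The 8 targets named for the largest fitted median differences, from 6.06 to 6.95 on the log2 scale, were 0715-W, 0369-W, 1115-W, 0299-W, 0183-W, 0913-W, 0725-W and 1106-W, and their order was not measured, since most of their probes were not above the non-specific level in eyestalk. The 0183-W probes 192-226 and 32-66, for example, were at least 44.5-fold and 23.6-fold higher in ovary. Of the 8, 1115-W, 0299-W and 0913-W belong to the thrombospondin family, 0183-W and 1106-W to 1 unnamed family. The 78 targets outside any family, had 194 probes, of which 105 were higher in ovary and 40 lower, with a median log2 difference of 0.50, and whether this differs from the families was not tested.

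Some ESTs cloned from ovary were lower there than in eyestalk. The 1125-W probe 62-96 lay at 6.76, 9.35 and 9.66 in wild ovary and at 10.79, 11.85 and 12.72 in eyestalk. The ranges did not overlap, and the log2 difference was -2.82 (SE 0.31, limma adjusted p = 2.74e-09). In the 0213-W family 5 of 6 probes were called lower in ovary and the other, a probe of 0213-W itself, higher. The family had a median level of 10.69 to 11.98 over wild ovary arrays and 12.56 to 13.81 over eyestalk arrays. Its 1130-W probe 294-328 differed by -1.76 (SE 0.21, limma adjusted p = 1.96e-08), and the overlapping 0213-W probe 331-365, which shares 33 bases with it, by -1.76 (SE 0.22). The other targets with the largest falls were 0147-W (median log2 difference -1.73), 0792-W (-1.54), 0086-W (-1.53), 1129-W (-1.37), 0816-W (-1.24) and 0765-W (-1.05). For 0765-W the sign turned when arrays were scaled to one median, to 0.00188.

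In 8 targets the probes disagreed, with calls in both directions: 0213-W, 0726-W, 0100-W, 0189-W, 1112-W, 1119-W, 0532-W and 0186-W. In 1119-W the probe 261-295 was lower in ovary by -1.91 (SE 0.15) and the probe 372-406 higher by 0.77 (SE 0.11) on the log2 scale. In 0726-W the probe 465-499 was lower by -1.96 (SE 0.31) and the probe 9-43 higher by 0.88 (SE 0.27). For such targets no single ovary value is given. More generally, over the 143 targets with more than 1 probe, the median correlation of a target's probes over the 38 arrays was 0.82, with the lowest pair above 0.9 in 59 targets and below 0 in 17, values that share tissue groups and arrays and carry no test.

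Captive animals gave the same comparison on arrays that share no sample with the wild ones. Of the 345 member probes, 172 were higher in captive ovary than in captive eyestalk and 35 lower, with a fitted median log2 difference of 0.85, or 0.54 with 128 probes at their bound (limma, 8 arrays), against 36.8% of all probes called, 15% higher and 21.7% lower. All 172 had also been called higher in wild ovary, which is 74.1% of the 232 wild calls, and 28 of the 35 lower ones had been called lower there, which is 51.9% of 54. The 0186-W probe 51-84 was called both ways, higher in wild ovary by 0.98 (SE 0.35, adjusted p = 0.0168) and lower in captive ovary by -1.34 (adjusted p = 0.0157). Over the 345 members the differences of wild and captive animals had a correlation of 0.96, a description over probes that share targets, and 303 had the same sign. Neither the overlaps of calls nor the correlation and signs were computed over all probes, so whether they are particular to the members is not known.

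Rod-family ESTs were again among the leading members. The 0715-W probe 138-172 lay at 13.16, 14.27, 14.49 and 14.40 on the captive ovary arrays from before ablation, after ablation, vitellogenic and with elongated rods, and at 6.74, 6.81, 6.76 and 6.83 on the matching eyestalk arrays. All 4 ovary arrays were far above all 4 eyestalk arrays, none of which exceeded the non-specific level, and the log2 difference was 6.90 (SE 0.33, limma adjusted p = 9.34e-07), at least 39.8-fold. All 30 thrombospondin-family probes were higher, by a fitted median of 4.80, or 4.01 with 20 probes at their bound. At the other end, the 1125-W probe 62-96 lay at 7.90, 8.63, 9.09 and 8.49 in captive ovary and at 11.38, 12.29, 12.70 and 12.35 in captive eyestalk, a log2 difference of -3.34 (SE 0.31, limma adjusted p = 5.14e-05). The groups did not overlap. Members higher in captive ovary had a median GC content of 47.8% and a median first base at 280.5, those lower 51.4% and 331, and those not called 45.7% and 257.

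**Figure D2:**
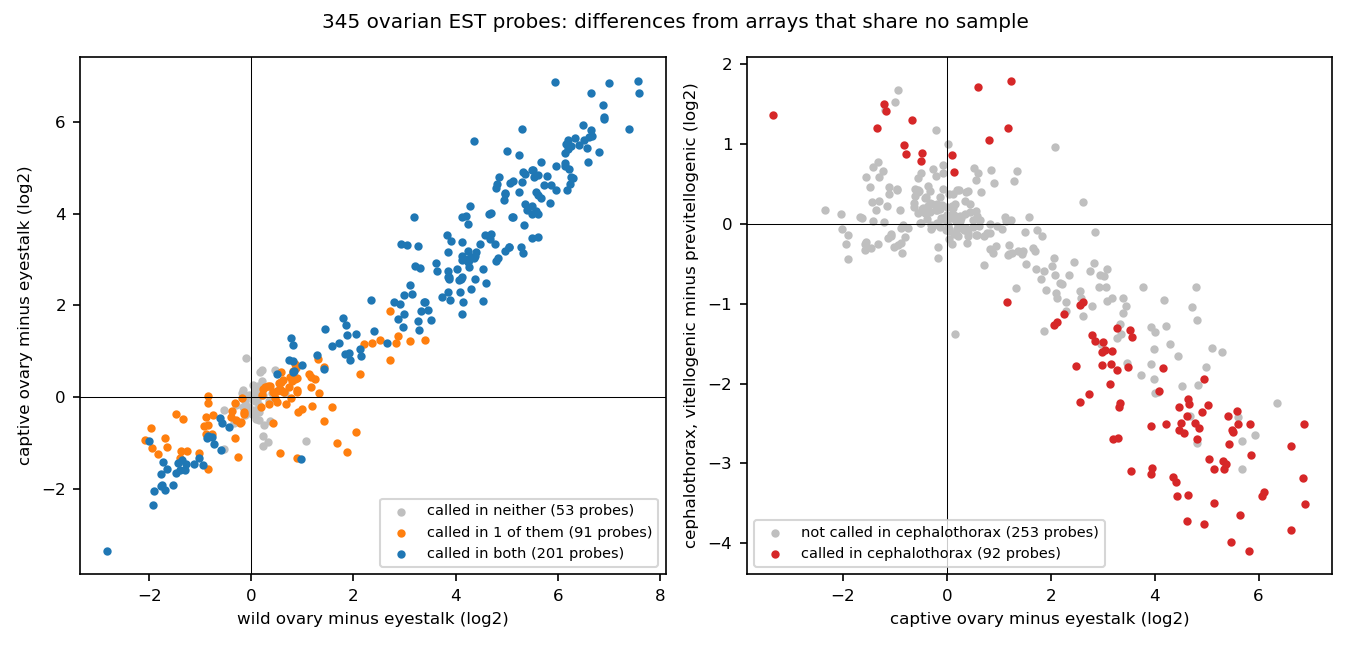
Left, log2 difference of each of the 345 member probes between ovary and eyestalk in wild (x axis) and captive animals (y axis). Right, log2 difference between captive ovary and eyestalk (x axis) against that between vitellogenic and previtellogenic cephalothorax (y axis); colours mark calls, and 201 probes were called in both tissue comparisons and 92 in cephalothorax.

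Wild ovary was compared with wild cephalothorax on the same ovary arrays. The scan-name prefix was 1 for all wild ovary arrays and 2 for all cephalothorax arrays, so tissue and prefix cannot be told apart here. There 237 member probes were higher in ovary and 24 lower, with a median log2 difference of 1.32, against 32.4% called higher and 23.8% lower among all probes. The 0369-W target led, with log2 differences of 5.04 (SE 0.38) and 4.34 (SE 0.29) for its probes 43-77 and 275-309, followed by 0819-W with 4.75 (SE 0.33) and 4.18 (SE 0.37). Lower in ovary were 0752-W (-1.51 at probe 607-640, SE 0.32), 0726-W (-1.60 at probe 465-499, SE 0.39) and 1125-W, with a median of -1.21 over its probes. Between eyestalk and cephalothorax 70 members were higher in eyestalk and 126 lower, against 33.1% and 21.2% among all probes. Within the vitellogenic arrays alone 29 were higher and 43 lower. The 126 included 27 of the 30 thrombospondin-family probes. The 0715-W probe 138-172 was lower in eyestalk than in cephalothorax by -3.48 (SE 0.52) on the log2 scale, and the 1129-W target was higher by a median of 1.25.

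The cephalothorax signal depended on stage. Between the 3 vitellogenic and the 3 previtellogenic cephalothorax arrays, 77 member probes were lower and 15 higher (limma), or 22.3% and 4.35% of the members, against 11.6% of all probes called, 6.12% lower and 5.49% higher. The thrombospondin family had median levels of 11.00 before ablation, 11.04 at 2 h and 12.04 at 24 h, then 9.01 at the vitellogenic stage, 8.20 with round rods and 7.69 with elongated rods. Its 3 previtellogenic arrays were all above its 3 vitellogenic arrays, the last of which was close to the eyestalk range of 7.16 to 7.46. Of its 30 probes 18 were called lower and none higher.

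Single members showed the size of the fall. The 0913-W probe 600-634 lay at 11.88, 12.18 and 13.08 on the arrays from before ablation, 2 h and 24 h, and at 8.94, 8.49 and 7.60 on those of the vitellogenic, round rod and elongated rod stages. The phases did not overlap, and the log2 difference was -3.84 (SE 0.45, limma adjusted p = 0.00655). The 0715-W probe 480-514 lay at 12.67, 12.86 and 11.99 and then at 9.65, 8.12 and 8.12, a log2 difference of -3.65 (SE 0.45, adjusted p = 0.00741). The 1115-W probe 152-186 fell by 4.09 on the log2 scale (SE 0.53, adjusted p = 0.0081). The other targets with the largest falls were 0400-W, 0255-W and 0347-W of the thrombospondin family, 1110-W and 0755-W, with median log2 differences of -3.19, -3.17, -2.94, -3.15 and -3.01.

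Of the 77 members that fell, 76 had been called higher in captive ovary than in captive eyestalk, arrays that share no sample with the cephalothorax; this is 98.7% of the 77 and 44.2% of the 172. The exception was the 0061-W probe 61-95, with a log2 difference of -0.98 in cephalothorax. The median level of the 77 probes was 10.35 in previtellogenic and 7.71 in vitellogenic cephalothorax, beside 12.88 in wild ovary and 7.13 in wild eyestalk. Over all 345 members the correlation between the captive tissue difference and the cephalothorax phase difference was -0.88, again a description over probes. Neither the overlap of calls nor this correlation was computed over all probes of the array. Whether the sampled cephalothorax pieces held ovary was not tested. The thrombospondin marker itself moved with the phase, at 9.77 to 11.14 on the previtellogenic and 7.76 to 8.77 on the vitellogenic cephalothorax arrays. The 4 myosin probes, a muscle marker, had medians of 11.55 to 11.98 and 10.83 to 12.49. The 3 transglutaminase probes, a haemocyte marker, had medians of 7.91 to 8.94 and 8.72 to 9.29. Cathepsin L, the marker fixed for digestive gland, stayed at 6.65 to 6.93 in cephalothorax, near its 6.54 to 6.89 in ovary.

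**Figure D3:**
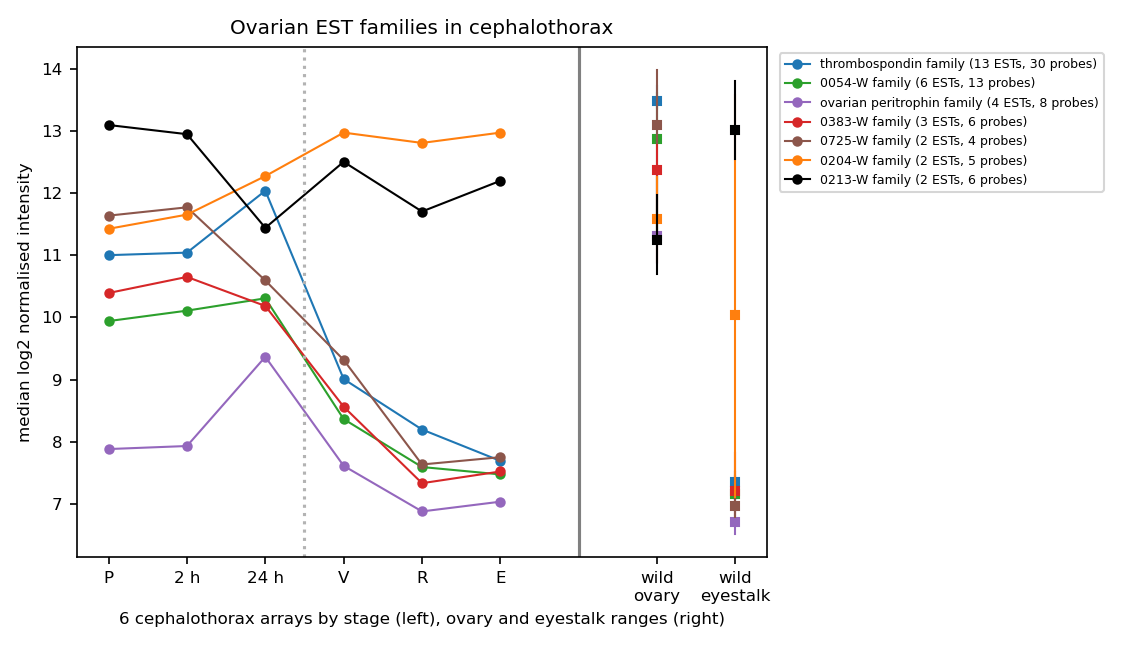
Median log2 normalised intensity of 7 families on the 6 cephalothorax arrays by stage (left of the grey line; the dotted line parts the phases), with the median (square) and range (line) over the 12 wild ovary and 12 wild eyestalk arrays at right. The thrombospondin family stands at 11.00 to 12.04 on the first 3 arrays and at 7.69 to 9.01 on the last 3, while the 0204-W family stands at 11.43 to 12.28 and 12.81 to 12.98.

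The phase effect differed between cephalothorax and ovary. A fit over the wild ovary and cephalothorax arrays, added after seeing the data, tested the phase effect in cephalothorax minus that in ovary: 80 members were lower and 9 higher, against 7.14% and 7.54% of all probes. For the 0913-W probe 600-634 the phase effects differed by -4.54 (SE 0.53, limma adjusted p = 1.06e-05), its wild ovary levels being 14.00, 14.72 and 15.54 (lowest, median, highest of 6) before and 14.02, 15.00 and 15.37 after vitellogenesis began. The thrombospondin family contributed 23 of the 80. Scaling to one median moved the count of called members from 89 to 52. The cephalothorax comparison itself rested on 6 arrays: leaving out 1 array gave between 36 and 117 called members in place of 92. The lowest came without the elongated-rod array, the highest without the 24 h array, and without the 2 h or the round-rod array 41 and 46 were called. Slide 9 held 4 of the 6 arrays and slide 10 the other two, and with slide as a block 78 members were called. Within slide 9 alone 1 member was called, and within slide 10, where 1 array stood against 1 and the spread came from slide 9, also 1.

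Higher in vitellogenic cephalothorax were members outside the rod families, at 4.35% of members a smaller share than the 5.49% of all probes. In place of 15 members, 4 were called higher with arrays scaled to one median. Without the elongated-rod, the 2 h or the round-rod array 1, 2 and 4 were, so these rises depended on single arrays. The 0186-W probe 754-788 lay at 7.54, 7.66 and 7.37 before ablation, at 2 h and at 24 h, and at 9.01, 8.35 and 9.29 at the later stages. The phases did not overlap, and the log2 difference was 1.50 (SE 0.25, adjusted p = 0.0176). The 0017-W probe 347-381 rose by 1.80 (SE 0.33, adjusted p = 0.0207), the 0333-W probe 101-135 by 1.72 (SE 0.37, adjusted p = 0.0363) and the 1125-W probe 62-96 by 1.36 (SE 0.19, adjusted p = 0.0094). The 0802-W probe 585-619 was the 1 member called higher here and higher in captive ovary.

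Within wild ovary no member was called by phase or stage. Between the 6 vitellogenic and the 6 previtellogenic wild ovary arrays 0 of 345 members were called by limma, 8 had an unadjusted p under 0.05 and the smallest adjusted p was 0.976; the methods' t-test also called 0, and 0% of all 2240 probes were called. The members with the smallest p were 0532-W, whose probe 585-619 differed by 0.66 (SE 0.23), and 0389-W of the peritrophin family, whose probe 766-800 differed by -0.71 (SE 0.25); neither passed the test. The thrombospondin family had median levels of 13.38 to 13.59 over the previtellogenic and 13.39 to 13.72 over the vitellogenic arrays, and the peritrophin family 11.05 to 12.44 and 10.88 to 11.74. The ranges overlapped in both. With the replicate number as a block 0 members were called by phase, 18 had an unadjusted p under 0.05 and the smallest adjusted p by limma was 0.125.

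Finer stage contrasts had 2 arrays a stage. At 2 h against before ablation 0 members were called, with 7 at an unadjusted p under 0.05 and 0% of all probes called; at 24 h against before ablation 0, with 0 unadjusted; and for the cortical rod stages against the vitellogenic stage 0, with 19 unadjusted. The 0219-W probe 177-211 had a log2 difference of 2.10 (SE 0.72) in the rod stages over the vitellogenic stage and of -2.15 (SE 0.83) at 2 h, with adjusted p of 0.999 and 0.998 by limma. With the replicate number as a block the rod contrast also called 0 members, with 50 unadjusted and a smallest adjusted p of 0.236 by limma. The spread between wild ovary arrays was moderate: the median SD of a member over the 12 arrays was 0.417 and the median range 1.34 on the log2 scale. For 14 members the range exceeded 3, and the lowest array was the first 2 h array for 9 of them and the first vitellogenic array for 4. Among these 14 were the 3 probes of 0061-W, with its probe 61-95 at 6.91, 9.75 and 11.11 (lowest, median, highest).

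Captive ovary was compared with wild ovary within each phase. All captive ovary arrays lay on 1 slide and all wild ones on 3 others. The scan-name prefix was 2 for all captive ovary arrays and 1 for all wild ones. Origin, slide and prefix therefore cannot be told apart. In previtellogenic ovary 34 members (9.86%) were lower in captive animals and 9 (2.61%) higher (limma), with a median log2 difference of -0.35. Among all probes 9.02% were lower and 13.5% higher. The share of lower members was thus near that of the array, and fewer members were called either way, 12.5% against 22.5%. In vitellogenic ovary 0 members were called, with 51 at an unadjusted p under 0.05, a smallest adjusted p of 0.0604 and 0.0446% of all probes called; the methods' t-test called 3.

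No probe of the thrombospondin or peritrophin family was among the 43. The 0790-W probe 84-118 lay at 7.57 before and 8.58 after ablation in captive ovary, against 9.89, 10.39 and 11.83 (lowest, median, highest) on 6 wild previtellogenic arrays. Both captive arrays were below all wild ones, and the log2 difference was -3.00 (SE 0.66, limma adjusted p = 0.0057). The 0775-W probe 244-278, which shares 29 bases with it, lay at 7.32 and 8.63 against 9.92, 10.38 and 11.18, a log2 difference of -2.96 (SE 0.58, adjusted p = 0.00269). The 0732-W probe 609-643 lay at 8.25 and 8.54 against 9.71, 10.54 and 11.00, a log2 difference of -2.62 (SE 0.40, adjusted p = 0.000483), with both captive arrays again below all wild ones. The other probes of these 3 targets did not pass the test, with log2 differences of -1.52, -1.42, -1.35 and -1.57. The other named targets, 0986-W, 0855-W, 1128-W, 1098-W and 0204-W, had median log2 differences of -2.12, -1.94, -1.89, -1.58 and -1.58.

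Higher in captive previtellogenic ovary were the 0741-W probe 58-92, at 12.38 and 11.48 against 8.85, 9.46 and 10.71, and the 1095-W probe 54-88, at 12.28 and 10.44 against 8.80, 8.97 and 9.82. The log2 differences were 2.73 (SE 0.48, adjusted p = 0.00149) and 2.63 (SE 0.47, adjusted p = 0.00151), with no overlap of the groups. These probes overlap each other and carry the strand opposite to Contig[0238]. Their ESTs' other probes did not follow: 0741-W at 459-492 was lower by -0.96 (SE 0.25, adjusted p = 0.0142), and 1095-W at 122-155 differed by -0.04. The other targets higher were 0937-W, 0771-W, 0859-W and 0857-W, and with arrays scaled to one median 0937-W and 0857-W turned to -0.0616 and -0.165.

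The captive array from before ablation stood apart from the other 3. Its non-specific level was 8.15, against 7.41 to 7.47 on the others, and 30.7% of all probes exceeded it, against 44.4% to 46.3%. Of the members, 197 exceeded it, against 271 to 285. It had a median member level of 8.78 against 9.90 to 10.06. It was the lowest of the 4 for 175 of the 345 members and the highest for 63. It was below every wild ovary array for 156 members and above every one for 41. It was at least 2 log2 units below the mean of the other 3 for 36 members and above it by that much for 0. These counts were not made over all probes, so whether they are particular to the members is not known. The 0211-W probe 151-185 lay at 7.83 on this captive array and at 12.54, 11.96 and 11.36 on the other 3. The 0986-W probe 171-205 lay at 8.40 against 12.49, 12.43 and 12.15. The medians of the rod families moved less: the thrombospondin family had medians of 13.09, 13.36, 13.32 and 13.24 on the 4 captive arrays and the peritrophin family 11.79, 11.32, 11.10 and 11.51. Without this array 25 members were called between captive and wild previtellogenic ovary, in place of 43, and without the other captive previtellogenic array 92. Without the second wild array from before ablation 27 were called. The sign of 0986-W turned without the captive array from before ablation, to 0.232. The median of the transglutaminase probes was 7.56 on this array, 7.26 to 7.33 on the other captive ovary arrays and 6.21 to 6.82 on the wild previtellogenic ones. Pigment dispersing hormone probes had a median of 7.41 on it and 6.83 to 6.98 on the other captive ovary arrays, and arrestin probes 6.73 and 6.45 to 6.48. The myosin probes had 7.34 and 7.07 to 7.26. On the wild previtellogenic ovary arrays myosin had medians of 6.97 to 7.37, a range that held the 7.34. Pigment dispersing hormone had 6.75 to 7.32 on those wild arrays and arrestin 6.39 to 6.67, both below the values of this captive array. The probes of PmSGP, sinus gland peptides of the eyestalk, were not raised, at 6.886 and 6.894 to 6.953. Cathepsin L probes were not raised either, at 6.82 and 6.76 to 6.89. All these marker medians lay below the array's non-specific level of 8.15. The part of these markers in the members' values was not tested.

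**Figure D4:**
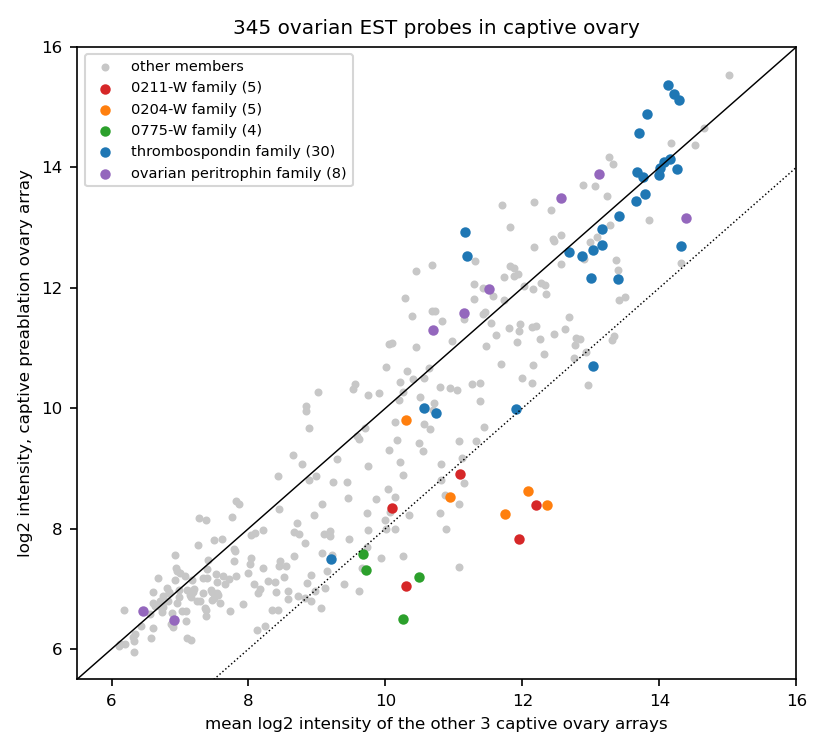
Log2 normalised intensity of each member probe on the captive ovary array from before ablation (y axis) against the mean of the other 3 captive ovary arrays (x axis), with the line of equality and, dotted, the line 2 units below it. Of the 36 probes below the dotted line, 4 each belong to the 0211-W, 0204-W and 0775-W families and 1 to the thrombospondin family.

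Between the phases of captive ovary 8 members (2.32%) were higher and 4 (1.16%) lower in the vitellogenic arrays, against 2.77% and 6.7% of all probes. The share of higher members was thus near that of the array, and the share of lower members below it. The largest rises were those of 0775-W at probe 244-278, from 7.32 and 8.63 to 10.62 and 9.89 (log2 difference 2.78, SE 0.71, adjusted p = 0.0266), of 0732-W at probe 609-643, from 8.25 and 8.54 to 10.30 and 10.34 (2.46, SE 0.49, adjusted p = 0.00874), and of 0195-W at probe 618-652, from 8.89 and 9.67 to 10.28 and 10.81 (1.56, SE 0.41, adjusted p = 0.0305). The falls were those of 0771-W, 0816-W, 0383-W and 1117-W, the largest a log2 difference of -1.08 (SE 0.32) at the 0816-W probe 169-203. No member was called lower with arrays scaled to one median or with dim probes left out. Scaling to one median also turned the median differences of 0383-W and 0816-W to 0.937 and 0.205. Fitted on the 4 captive arrays alone, 0 members were called, and the methods' t-test called 8. Without the preablation, postablation, vitellogenic or elongated-rod array the count was 19, 51, 4 and 2.

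Whether the phase effect differed between captive and wild ovary was tested as an interaction. It was larger in captive ovary for 3 members and smaller for 0, against 0.625% and 1.52% of all probes. These were 0732-W at probe 609-643 (2.42 on the log2 scale, SE 0.56, limma adjusted p = 0.0407), 0195-W at 618-652 (2.14, SE 0.47, adjusted p = 0.0334) and 0722-W at 113-147 (1.16, SE 0.19, adjusted p = 0.0193). In wild ovary the 0732-W probe lay at 9.71, 10.54 and 11.00 before and 9.71, 10.56 and 11.21 after vitellogenesis began, with overlapping ranges. No member was called with arrays scaled to one median or without the captive vitellogenic or elongated-rod array. Without the captive array from before ablation 12 were called, without the one after it 34, and without the first wild elongated-rod or the second wild round-rod array 1.

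In eyestalk no member was called between phases (limma, 31 at an unadjusted p under 0.05, 0.625% of all probes called) or between captive and wild animals (76 unadjusted, 0.536% of all probes called). Without the second wild eyestalk array of 24 h, 13 members were called between captive and wild eyestalk. The 0204-W family had eyestalk signal that varied widely between arrays. Its median level ran from 7.11 to 13.59 over the 12 wild eyestalk arrays, with 12.60 and 12.85 at 2 h, 8.60 and 13.59 before ablation, and 7.11 and 11.71 at the round rod stage. Over the 12 wild ovary arrays it ran only from 10.90 to 12.26. In wild eyestalk the family's median was higher on the second array than on the first at all 6 stages. The myosin probes had medians of 9.05 to 12.19 over the eyestalk arrays, and their part in this spread was not tested. For this family the wild ovary was higher than eyestalk in 4 of 5 probes, and captive ovary in none.

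Probes of opposite strand gave a further view of the members. Where probes of different targets shared a run on the same strand, 106 of 107 such pairs had the same direction between wild ovary and eyestalk. Pairs without a shared run were not compared, and the 107 pairs reuse probes and so are not independent. Their median correlation over the 38 arrays was 0.98, with 96 pairs above 0.9 and the lowest, between 0383-W and a clone of another library, at -0.70, a description over arrays that share tissue groups. Of 7 pairs on opposite strands, 1 had no signal above the non-specific level on either strand in ovary or eyestalk. In each of the other 6, one probe was higher in wild ovary than in eyestalk and its opposite was not. The 0387-W probe 468-502 lay at 8.46, 8.67 and 9.29 in wild ovary and at 7.18, 7.38 and 7.63 in eyestalk, a fitted log2 difference of 1.44 (SE 0.08, adjusted p = 1.37e-15), at least 1.53-fold. Its exact reverse complement, the 1097-W probe 436-470, lay at 6.16, 6.38 and 6.80 and at 6.06, 6.51 and 6.76, a log2 difference of -0.04 (SE 0.09, adjusted p = 0.71), and exceeded the non-specific level on no array of either tissue.

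The peritrophin-family pair behaved likewise: the 0389-W probe 766-800 was higher in ovary by a fitted 5.13 (SE 0.21), at least 10.2-fold, while the 0867-W probe 150-184, with 27 bases of its complement, differed by -0.15 (SE 0.05, adjusted p = 0.0144) and exceeded the non-specific level on no ovary or eyestalk array. The orientation of the labelled RNA relative to the ESTs was not settled from the labels, so it is not known which strand of the RNA a probe read. For Contig[0238] the probes went opposite ways with signal on both strands. Its probe 1241-1276 was higher in wild ovary by 5.58 (SE 0.29), and the 1095-W probe 54-88, with 23 bases of its complement, was lower by -1.65 (SE 0.22, adjusted p = 1.07e-07) and above the non-specific level on all 12 ovary and all 12 eyestalk arrays. The 0741-W probe 58-92, with 19 such bases, was lower by -2.08 (SE 0.22, adjusted p = 9.02e-10). Over the 38 arrays their correlations with the contig probe were -0.62 and -0.68, which share the tissue groups. In captive previtellogenic ovary, where 1095-W and 0741-W were higher than in wild ovary, the contig probe differed by 0.26 (SE 0.26) and did not pass the test.

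**Figure D5:**
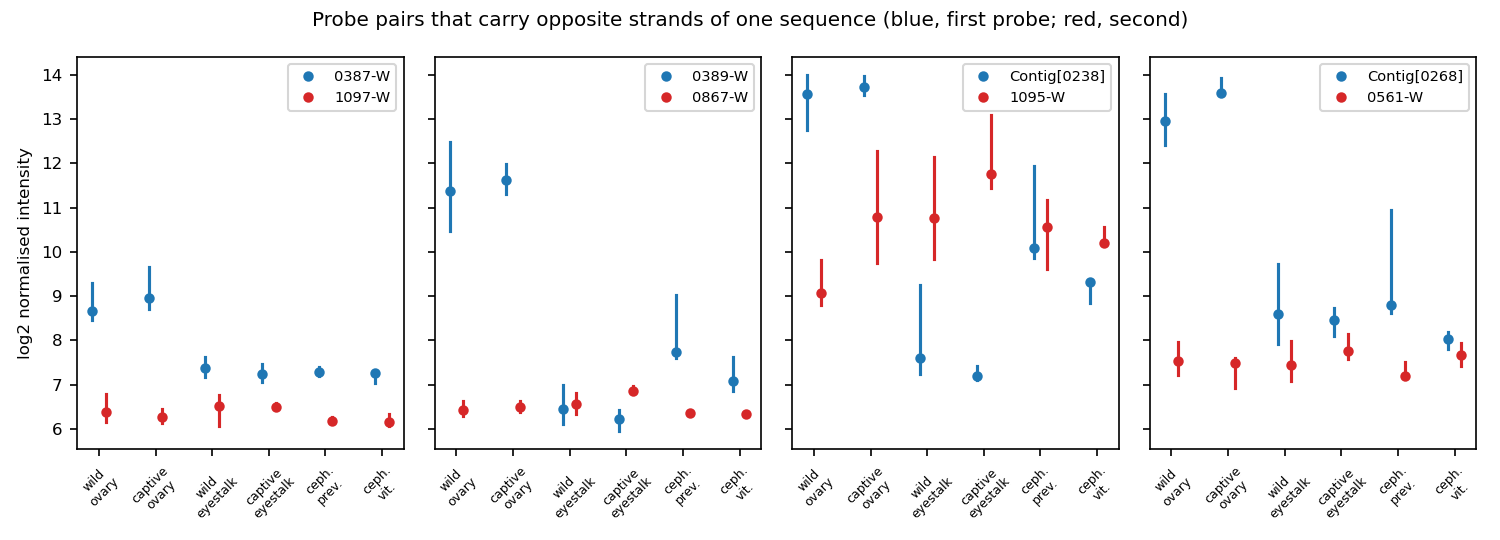
Median (point) and range (line) of log2 normalised intensity by group for 4 pairs of probes that carry opposite strands of a shared sequence. In each pair the first probe (blue) is higher in both ovary groups than in both eyestalk groups, and the second (red) is not; 1095-W is higher in wild eyestalk than in wild ovary.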

How the data were processed

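Amplified RNA of ovary, eyestalk and cephalothorax carried Cy5 on 38 arrays, per the labels' protocols. The authors deposited, per the file headers, the mean and median foreground intensity of each spot on a linear scale, with no background column and a ceiling of 65535. The deposited value table equals the mean intensity (85082 values within 0.01). From the deposited mean intensity, normexp background correction (offset 50), log2 and quantile normalisation among a fit's own arrays gave the values tested per probe with lmFit and eBayes (limma 3.58.1, R 4.3.3), with Benjamini-Hochberg adjustment over all 2240 probes. "At least" folds set the bright group against the higher of the non-specific level and the dim probe's own signal. The array holds no trypsin probe, so the digestive gland marker was cathepsin L.

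Members and lists were chosen with earlier results of these data known. The shared-run minimum, the families, the fit of cephalothorax against ovary phase effects and the slide block in cephalothorax were chosen after seeing the data. Targets were named by rule: in each comparison, those with calls in 1 direction and the 8 largest median differences each way (3 smallest p where none was called), and those with calls in both directions. Other probes were named after their values were seen, as members of shared-sequence pairs or as array outliers. No member could be named from RefSeq, so the planned lists of gene roles had no members. The scripts were tested on simulated data. Alternatives were the median intensity, no correction, median scaling, leaving out dim probes, slide and replicate blocks, the methods' t-test, within-phase values and leaving out each array.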

Additional observations from a re-analysis of the deposited data

Results flagged for a closer look

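Over 147 tests of 21 measures (the family medians, the median of all members and the number above the non-specific level) in groups of 4 or more arrays, 10 values, on 5 arrays, stood far from the rest of their group, where chance flags about 1 in 20 tests. On the captive ovary array from before ablation, 197 members were above the non-specific level (271 to 285 on the other 3; over all probes 30.7% against 44.4% to 46.3%, with the level itself at 8.15 against 7.41 to 7.47), the median of all members was 8.78 (9.90 to 10.06) and that of the 0204-W family 8.53 (11.49 to 12.01). On the captive ovary array from after ablation, the 0725-W family had a median of 11.91 (13.18 to 13.23). On the first wild ovary array of the vitellogenic stage, the medians were 9.82 for the 0211-W family (11.99 to 12.99 on the others of the phase), 9.27 for the 0775-W family (10.91 to 11.59) and 8.45 for members in no family (8.86 to 8.95). On the first wild ovary array of the round-rod stage, the 0330-W family had a median of 10.87 (11.36 to 11.62) and the 0387-W family one of 8.26 (7.66 to 7.87). On the second wild eyestalk array of that stage, the 0213-W family had a median of 13.55 (12.91 to 13.10).

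Differences between groups under the same contrast were called for the ovarian phase effect, larger in captive than in wild animals by 2.42 for the 0732-W probe 609-643, 2.14 for the 0195-W probe 618-652 and 1.16 for the 0722-W probe 113-147, on the log2 scale. The phase effect in cephalothorax was lower than that in wild ovary for 80 member probes and higher for 9.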

How the results depend on the processing

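Under every alternative run, the counts of members called between wild ovary and eyestalk, between wild ovary and cephalothorax and between captive ovary and eyestalk stayed within 1.5 times the main count, and no member was called by phase or rod stage in wild ovary. The number of arrays, pools and brightness near the non-specific level limit the other counts. Eyestalk against cephalothorax gave 72 members within the vitellogenic arrays in place of 196 (over all probes 714 in place of 1216). Captive ovary by phase gave 7 with median scaling, 4 without dim probes, 0 on captive arrays alone, and 2 to 51 leaving out 1 array, in place of 12. Captive against wild previtellogenic ovary gave 25 without dim probes and 25 to 92 leaving out 1 array (27 without the second wild array from before ablation), in place of 43; the vitellogenic comparison gave 3 by the methods' t-test and 0 to 1 leaving out 1 array. The phase effect of captive minus wild ovary gave 0 with median scaling, 0 without dim probes and 0 to 34 leaving out 1 array. The 2 h and 24 h contrasts gave 0 to 1 leaving out 1 array. Eyestalk by phase gave 1 with slide as a fixed block, 6 and 12 within slides 5 and 6, and 3 with the replicate block. Captive against wild eyestalk gave 1 with the median intensity, 1 on arrays of scan-name prefix 2 and 0 to 13 leaving out 1 array. Cephalothorax by phase gave 1 within slide 9, 1 within slide 10 (1 array against 1, with the spread taken from slide 9) and 36 to 117 leaving out 1 array; its difference from ovary gave 52 with median scaling.

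Median scaling moved the share of higher calls among members from 35.7% to 23.7% for eyestalk against cephalothorax, 66.7% to 100% for captive ovary by phase, 20.9% to 6.67% for captive against wild previtellogenic ovary, 16.3% to 5.97% for cephalothorax by phase and 10.1% to 0% for its difference from ovary. It turned the median difference of 0765-W between wild ovary and eyestalk to 0.00188, of 0191-W between captive tissues to 0.145, of 0383-W and 0816-W by captive phase to 0.937 and 0.205, and of 0937-W and 0857-W between captive and wild previtellogenic ovary to -0.0616 and -0.165. Leaving out 1 array gave medians over a target's probes of -0.351 to 0.602 for 1093-W by captive phase and -0.0891 to 0.388 for 0722-W in the captive minus wild phase effect, both turned without the captive vitellogenic array, and of -4.32 to 0.232 for 0986-W, turned without the captive array from before ablation. The causes were not tested.

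The deviations of same-numbered arrays had a correlation over 0.1 in 10 of 15 stage pairs of ovary, 12 of 15 of eyestalk and 5 of 6 pairs of ovary with eyestalk. Many same-numbered arrays thus varied together. The labels do not tie the number to shared animals, and the main fits leave it out. With the replicate block, 290 members were called between wild ovary and eyestalk, 257 between ovary and cephalothorax, 205 between eyestalk and cephalothorax, and 0 between the phases of wild ovary. The block brought wild ovary members nearer to a call. By phase 18 had an unadjusted p under 0.05 in place of 8, and the smallest adjusted p by limma was 0.125 in place of 0.976. In the rod stages the count was 50 in place of 19, and the smallest adjusted p by limma 0.236 in place of 0.999.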

Other observations

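Some members differed in the same direction between the first and second wild arrays at every stage. Of the 345 members, 33 (9.57%) were higher on the second ovary array than on the first at all 6 stages and 16 (4.64%) were lower, against 93 (4.15%) and 153 (6.83%) of all 2240 probes. The 33 included all 4 probes of the 0775-W family, whose medians were 9.95, 9.50, 9.95, 9.27, 11.00 and 10.91 on the first arrays, from before ablation to elongated rods, and 11.35, 10.64, 10.67, 10.92, 11.59 and 11.55 on the second. They also included 4 of 13 probes of the 0054-W family, 3 of 5 probes each of the 0211-W and 0204-W families, and 1 of 30 of the thrombospondin family. In wild eyestalk 29 members (8.41%) were higher on the second array at all 6 stages and 16 (4.64%) were lower. Of all probes 136 (6.07%) and 128 (5.71%) were. The 29 included 2 of 5 probes of the 0204-W family. In both tissues the 2 arrays of a stage lay on different slides, so pool and slide cannot be told apart. Which ovary pools held 4 and which 5 animals was not used.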
